A study of Mus musculus with 12 samples.

Results

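The genes described here are 37 genes of lipid metabolism, chosen by name: 20 of sterol synthesis, its regulation and cholesterol efflux, 9 of fatty-acid synthesis, elongation and desaturation, and 8 of fatty-acid oxidation. Of these, 36 were in the tables of all 12 libraries, out of 18926 genes in all, and all 36 passed the filter on low counts. *Abcg1* was not analysed here. The 3 arms therefore held 19, 9 and 8 members.

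Tumorspheres of S1 cells, which were established from a gastric cancer of a ChetPS mouse, were sequenced in 4 groups of 3 libraries. For controls the study used a non-targeting sgRNA and an intact plasmid backbone, and which of them the sequenced control carried is not given. In the other groups CRISPR-Cas9 and lentiviral sgRNAs had been used against *Nf2*, against *Rasa1*, or against both (double-KO). *Nf2* encodes merlin, an upstream activator of Hippo signalling, and *Rasa1* encodes a GTPase-activating protein of Ras. All groups shared Cas9 expression, the S1 background and a serum-free sphere medium with epidermal growth factor, B-27 and N-2. S1M, the metastatic variant of S1, lacks *Smad4*, *Trp53* and *Cdh1* according to the study. Transduced cells were selected with antibiotic and no single clones are described for them, so that a group may hold unedited cells. The labels call the cell type a monolayer cell, whereas the series title and the study describe tumorspheres. Total counts ran from 43818139 to 96674463 per library.

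The genotype labels could not be taken as they stand. *Nf2* was at 58.1, 61.0 and 55.4 CPM (counts scaled to library size, with the TMM factors of edgeR) in the control libraries, 14.3, 13.2 and 13.2 in the *Nf2*-KO libraries, 11.6, 11.95 and 12.1 in the libraries labelled *Rasa1*-KO and 62.6, 57.6 and 56.4 in those labelled double-KO. The *Nf2* transcript was thus low in the libraries labelled *Rasa1*-KO and at the control level in those labelled double-KO. *Rasa1* was at 60.5, 74.9 and 78.5 CPM in control, 97.25, 101.1 and 97.2 in *Nf2*-KO, 34.5, 30.4 and 30.8 in the libraries labelled *Rasa1*-KO and 17.7, 20.6 and 23.3 in those labelled double-KO. *Rasa1* was below control in both groups in which it had been targeted. The deposited file names and column headings give the names *Rasa1*-KO and double-KO the other way round. Under those names the double-KO would be low in both transcripts and the *Rasa1*-KO in *Rasa1* alone. The transcripts thus go with the file names rather than with the labels. Groups follow the labels throughout and are written as libraries labelled so, and every direction given for these 6 libraries rests on that label. Under the file names, what is given for the libraries labelled *Rasa1*-KO would belong to the double-KO, and the reverse.

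Cells make cholesterol from acetyl-CoA through the mevalonate pathway, and fatty acids from acetyl-CoA through malonyl-CoA. Both routes are under transcription factors of the SREBP family, encoded by *Srebf1* and *Srebf2*, which SCAP escorts from the endoplasmic reticulum for cleavage when sterols are scarce and which INSIG proteins retain when sterols are plentiful. SREBPs bind sterol regulatory elements, usually next to boxes bound by NF-Y. Fatty acids are burned in mitochondria after transfer onto carnitine by *Cpt1a*, the entry step that malonyl-CoA inhibits. Cells grown without serum lipids draw on their own synthesis of both.

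To show what the sterol genes carry upstream of their starts, 4 promoter stretches are printed, each the 250 bases before the start of a RefSeq transcript on GRCm38.p6 (mm10), all on the plus strand. *Hmgcs1* (chr13:119690101-119690350) and *Mvk* (chr5:114444019-114444268) encode an early and a later enzyme of the mevalonate pathway, *Insig1* (chr5:28071162-28071411) a regulator of it, and *Hadhb* (chr5:30155003-30155252) a subunit of the mitochondrial trifunctional protein, shown for contrast from the oxidation arm. Capitals mark CCAAT, or ATTGG where it lies on the other strand, and the sterol regulatory element TCACNCCAC. The *Hadhb* stretch lies between the starts of *Hadhb* and its partner *Hadha*, which are transcribed away from each other.
Hmgcs1: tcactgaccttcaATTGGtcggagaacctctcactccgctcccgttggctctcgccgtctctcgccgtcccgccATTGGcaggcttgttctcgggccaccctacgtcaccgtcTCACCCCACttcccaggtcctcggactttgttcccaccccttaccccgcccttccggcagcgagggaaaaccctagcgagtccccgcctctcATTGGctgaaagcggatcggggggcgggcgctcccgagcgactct
Mvk: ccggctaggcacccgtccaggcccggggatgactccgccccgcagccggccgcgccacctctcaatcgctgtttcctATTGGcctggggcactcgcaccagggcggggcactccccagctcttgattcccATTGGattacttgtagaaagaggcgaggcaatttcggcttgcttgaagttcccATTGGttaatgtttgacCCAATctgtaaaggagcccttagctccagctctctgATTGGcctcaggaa
Insig1: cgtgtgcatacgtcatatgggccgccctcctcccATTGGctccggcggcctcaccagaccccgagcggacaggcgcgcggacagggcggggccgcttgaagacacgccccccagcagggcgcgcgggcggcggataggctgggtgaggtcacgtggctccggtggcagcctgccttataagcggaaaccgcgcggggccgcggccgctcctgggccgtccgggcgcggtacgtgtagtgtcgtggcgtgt
Hadhb: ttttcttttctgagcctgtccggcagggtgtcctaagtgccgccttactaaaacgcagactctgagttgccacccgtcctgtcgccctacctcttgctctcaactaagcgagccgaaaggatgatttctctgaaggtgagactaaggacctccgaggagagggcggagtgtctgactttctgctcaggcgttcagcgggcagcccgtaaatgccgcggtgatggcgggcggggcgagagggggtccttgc

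Of the members, 30 had an entry in the RefSeq promoter table. CCAAT, on either strand, was in the window of 15 of 16 sterol members, 2 of 6 fatty-acid synthesis members and 1 of 8 oxidation members, against 37.49% of all 27025 genes in the table, and a gene with several starts was counted where any window held the motif. *Abca1* was the sterol member without it. *Dhcr7* and *Hsd17b7*, whose transcripts were not called in any of the 6 comparisons when all libraries were fitted by group alone, had it as well. The letters TCACNCCAC were found upstream of *Hmgcs1* alone among the members, against 1.225% of all genes. The E-box CACGTG was upstream of 5 of 16 sterol members and of no member of the other arms, against 6.86% of all genes. The TEAD box GGAATG was upstream of 0 of 16 sterol members, 1 of 6 fatty-acid synthesis members (*Acss2*) and 1 of 8 oxidation members (*Cpt1a*), against 14.36% of all genes. All motifs were sought on both strands of the 250 bases before each start, and a match describes the letters only.

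Against control, 15 of the 19 sterol members tested rose in *Nf2*-KO tumorspheres and 14 rose in the libraries labelled *Rasa1*-KO. Among 9 fatty-acid synthesis members 8 and 5 rose, respectively. Of the 8 oxidation members, 3 fell in each of these groups and 0 rose. A gene was called where the adjusted p of edgeR's quasi-likelihood test (Benjamini-Hochberg over 18053 genes) was under 0.05. In *Nf2*-KO against control 23 of the 36 members (63.9%) were called higher and 4 (11.1%) lower, where 20.6% of all genes tested were called higher and 22.2% lower. In the libraries labelled *Rasa1*-KO 19 members (52.8%) were called higher and 3 (8.33%) lower, against 19.7% and 22.2% of all genes. Both comparisons use the same 3 control libraries. The count in the group labelled double-KO depended on the libraries fitted and on the block, with 4 members called higher and 0 lower in edgeR, against 4% and 2.46% of all genes. At an unadjusted p under 0.05 these counts were 13 and 1, and DESeq2 called 8 and 0. Here and below, counts at an unadjusted p or in DESeq2 have no share of all genes beside them. They therefore say nothing particular to the members. The edgeR counts at an adjusted p under 0.05 were 23 and 2 without the control library without a number, against 17.2% and 12.9% of all genes. With the replicate block by the numbers in the file names they were 18 and 0, against 8.03% and 5.82%. That block gave all groups a common term per number. Same-numbered pairs other than control with double-KO hardly correlated in their deviations from group means (-0.0552 to 0.174). Calls with this block, here and below, rest on that term. In a blocked fit of control and the libraries labelled double-KO alone 0 were called higher and 0 lower, against 1.24% and 0.72%. At an adjusted p of 0.05 or more a member was not shown to be unchanged. The study describes the libraries as technical replicates, so the p-values measure the spread between these libraries, which may be technical.

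**Figure D1:**
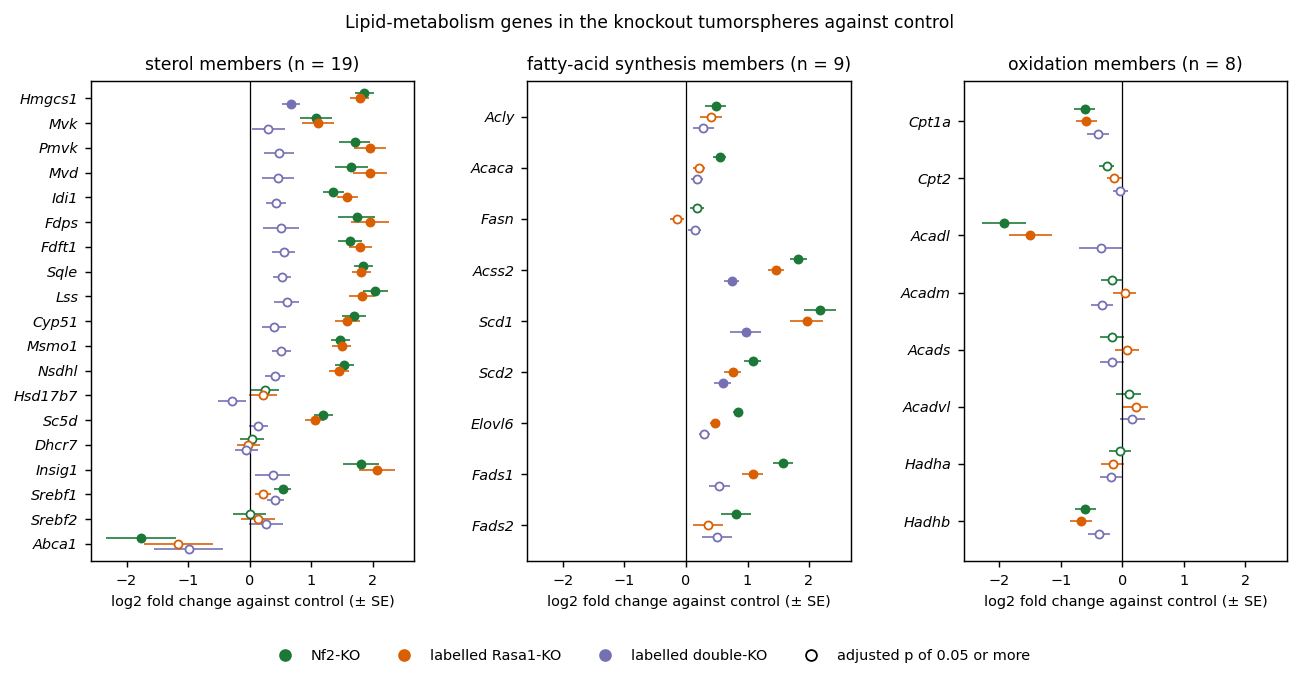
Log2 fold change against control (x axis, ± SE, edgeR) of each of the 36 members (y axis) in 3 panels, 1 per arm, for *Nf2*-KO (green), libraries labelled *Rasa1*-KO (orange) and libraries labelled double-KO (purple), each with n = 3 against 3. Filled points have an adjusted p under 0.05. Of the 15 sterol synthesis enzymes, 13 lie to the right of 1 in green and orange, whereas the purple points lie between -0.28 and 0.68.

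Certain libraries stood apart and touch every comparison with control. The control library without a number in its title lay at a mean distance of 147 from its own group (in log2 CPM over all genes tested), compared with 103 and 124 for control replicates 1 and 2, and double-KO replicate 1 lay at 89.3, compared with 69.2 for each of the other libraries so labelled. Over the members, the median SD of log2 CPM within a group was 0.415 in control but 0.08 in *Nf2*-KO, and it was 0.057 and 0.217 in the groups labelled *Rasa1*-KO and double-KO. The spread behind the comparisons with control therefore came mainly from the control libraries. Without the control library without a number, 25 members were called higher and 4 lower in *Nf2*-KO, against 30.6% and 31% of all genes, and likewise 25 and 4 in the libraries labelled *Rasa1*-KO, against 30.3% and 30.2%. The group labelled double-KO, where 4 and 0 were called with it, changed most, to 23 and 2, against 17.2% and 12.9%. Sterol members called higher then numbered 16, 16 and 15 in these groups, and fatty-acid synthesis members 8, 7 and 7.

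Marker genes of other cell types moved with the groups as well, some up and some down. Of the 13 markers of leukocytes, endothelium, fibroblasts, adipocytes and hepatocytes listed, 6 were in the tables, and their summed FPKM (fragments scaled to transcript length and library size) was 3.93 to 6.65 in control, 60.6 to 77.4 in *Nf2*-KO, 13.2 to 20.4 in the libraries labelled *Rasa1*-KO and 2.82 to 3.57 in those labelled double-KO. *Alb* was the most abundant of them in the control library without a number and in double-KO replicate 1, and *Col1a1*, a collagen chain of fibroblasts, in the other 10 libraries. *Col1a1* was at 1.13 to 20.2 CPM in control, 312 to 413 in *Nf2*-KO, 55.1 to 89.1 in the libraries labelled *Rasa1*-KO and 2.76 to 11.2 in those labelled double-KO. *Ptprc* of leukocytes and *Pecam1* of endothelium stayed under 1 CPM in every library. The 8 gastric epithelial markers were all in the tables, and their summed FPKM was 2160 to 3565 in control, 2840 to 3071 in *Nf2*-KO, 4064 to 4164 in the libraries labelled *Rasa1*-KO and 3476 to 3887 in those labelled double-KO. *Krt8* was the most abundant of them in every library, with 1503 to 3630 CPM, whereas *Cldn18* was at 0.113 to 0.511 CPM and *Tff1* at 0.117 to 2.37 CPM. The marker *Cdh1* is also an engineered gene of the ChetPS model, and its transcript was at 374 to 546 CPM in control. In *Nf2*-KO 3 of the 8 fell, by 2.63 ± 0.19 for *Epcam* (log2 ± SE, adjusted p = 1e-06), 2.09 ± 0.17 for *Cdh1* (adjusted p = 2.2e-06) and 3.10 ± 0.29 for *Muc1* (adjusted p = 7.5e-06), and 0 rose in edgeR. In the libraries labelled *Rasa1*-KO these genes fell as well, by 1.55 ± 0.18, 1.57 ± 0.16 and 2.15 ± 0.28 (adjusted p = 5.6e-05, 2.5e-05 and 0.00011), whereas *Krt8*, *Krt18*, *Krt19* and *Tff1* rose. In those labelled double-KO *Epcam* fell by 0.84 ± 0.18 (adjusted p = 0.017), *Krt19* rose by 0.72 ± 0.15 (adjusted p = 0.018) and the other 6 were not called. The part of these markers in the results was not tested, and in bulk RNA fewer cells of a type and less RNA per cell cannot be told apart.

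Within the sterol arm, the rise covered the pathway from its first committed steps to the late demethylations. Of the 15 synthesis enzymes 13 were called higher both in *Nf2*-KO, where the median log2 fold change over the 15 was 1.63, and in the libraries labelled *Rasa1*-KO, where it was 1.59, beside medians over all genes of -0.07 and -0.08. The 13 were *Hmgcs1*, *Mvk*, *Pmvk*, *Mvd*, *Idi1*, *Fdps*, *Fdft1*, *Sqle*, *Lss*, *Cyp51*, *Msmo1*, *Nsdhl* and *Sc5d*. Their fold changes ran from 2.11 (*Mvk*) to 4.13 (*Lss*) in *Nf2*-KO and from 2.08 (*Sc5d*) to 3.89 (*Fdps*) in the libraries labelled *Rasa1*-KO. *Hsd17b7*, a ketosteroid reductase of the pathway, gave 0.25 ± 0.23 and 0.22 ± 0.23 (log2 ± SE). Its level was 78.9 CPM in the control library without a number and 43.3 and 46.2 CPM in the other control libraries, and without the first it was called higher in both groups (0.59 ± 0.17 and 0.55 ± 0.17, adjusted p = 0.0092 and 0.014), as it was with the replicate block by the numbers in the file names (adjusted p = 0.00055 and 0.00093). *Dhcr7*, which catalyses the last reduction to cholesterol in one branch, gave 0.04 ± 0.19 and -0.02 ± 0.19. Summed over the 19 sterol members, 0.139% to 0.171% of all counts fell on this arm in control, 0.361% to 0.381% in *Nf2*-KO, 0.353% to 0.360% in the libraries labelled *Rasa1*-KO and 0.167% to 0.210% in those labelled double-KO.

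The early enzymes are represented by *Hmgcs1*, which makes HMG-CoA from acetoacetyl-CoA and whose promoter is printed above. Its level was 147, 106 and 94.9 CPM in control, given here and below in the order library without a number, replicate 1, replicate 2. It was 397, 447 and 416 CPM in *Nf2*-KO, 407, 400.1 and 393 CPM in the libraries labelled *Rasa1*-KO, again with the library without a number first, and 208, 167 and 180.4 CPM in those labelled double-KO. Every knockout library was above every control library, with the libraries labelled double-KO between control and the others. The log2 fold changes were 1.86 ± 0.15 (adjusted p = 2.9e-06), 1.79 ± 0.15 (adjusted p = 5.9e-06) and 0.68 ± 0.15 (adjusted p = 0.021), the last of which was no longer called without control replicate 1 or double-KO replicate 1 or 3 (log2 fold change 0.64, 0.58 and 0.71).

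*Sqle*, squalene epoxidase, which catalyses the first oxygenation of the pathway, was at 139, 99.2 and 103 CPM in control, 404, 411 and 411 in *Nf2*-KO, 397, 396 and 406 in the libraries labelled *Rasa1*-KO and 196, 149 and 146 in those labelled double-KO. *Nf2*-KO and the libraries labelled *Rasa1*-KO were at nearly one level and far above control. The log2 fold changes were 1.85 ± 0.15 (adjusted p = 2.3e-06), 1.82 ± 0.15 (adjusted p = 4.1e-06) and 0.53 ± 0.14 (adjusted p = 0.053). *Lss*, lanosterol synthase, which closes the sterol rings, was at 87.0, 56.4 and 53.85 CPM in control, 262, 274 and 278 in *Nf2*-KO, 237.5, 229.7 and 234 in the libraries labelled *Rasa1*-KO and 132, 82.7 and 84.9 in those labelled double-KO. Double-KO replicates 2 and 3 were below the control library without a number, so the ranges overlapped. *Lss* gave a log2 fold change of 0.605 ± 0.20 in the group labelled double-KO (adjusted p = 0.11). Control libraries and those labelled double-KO share numbers in the file names, and within each of these 3 same-numbered pairs *Lss* was higher in the latter. With these numbers as a replicate block in the fit of all libraries it was called (0.605 ± 0.072, adjusted p = 0.00095), as was *Sqle* (0.53 ± 0.07, adjusted p = 0.0017), but in a blocked fit of the 6 paired libraries alone neither was (adjusted p = 0.075 and 0.11). Without the control library without a number *Lss* gave 0.86 ± 0.17 (adjusted p = 0.0032). *Lss* rose by 2.05 ± 0.21 in *Nf2*-KO (adjusted p = 1.4e-05) and 1.83 ± 0.21 in the libraries labelled *Rasa1*-KO (adjusted p = 4.4e-05) on the log2 scale.

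The late enzymes *Msmo1*, the methylsterol monooxygenase, and *Nsdhl*, a sterol dehydrogenase acting beside it, followed. *Msmo1* was at 158.5, 101.4 and 105 CPM in control, 318, 354 and 342 in *Nf2*-KO, 361, 331 and 339 in the libraries labelled *Rasa1*-KO and 189.5, 164.5 and 169 in those labelled double-KO. *Nsdhl*, an X-linked gene, was at 22.5, 16.3 and 16.0 CPM in control, 54.5, 52.7 and 52.1 in *Nf2*-KO, 49.3, 52.3 and 48.45 in the libraries labelled *Rasa1*-KO and 30.05, 21.5 and 21.4 in those labelled double-KO. For both genes the control range and the 2 raised groups did not overlap. *Msmo1* rose by 1.47 ± 0.16 (adjusted p = 1.9e-05) and 1.50 ± 0.16 (adjusted p = 2.5e-05) in these 2 groups, and *Nsdhl* by 1.54 ± 0.16 (adjusted p = 1.6e-05) and 1.45 ± 0.16 (adjusted p = 3.5e-05). In the libraries labelled double-KO they gave 0.52 ± 0.15 and 0.42 ± 0.16 (adjusted p = 0.071 and 0.15), and both were called with the replicate block by file-name numbers (adjusted p = 0.009 and 0.0075).

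**Figure D2:**
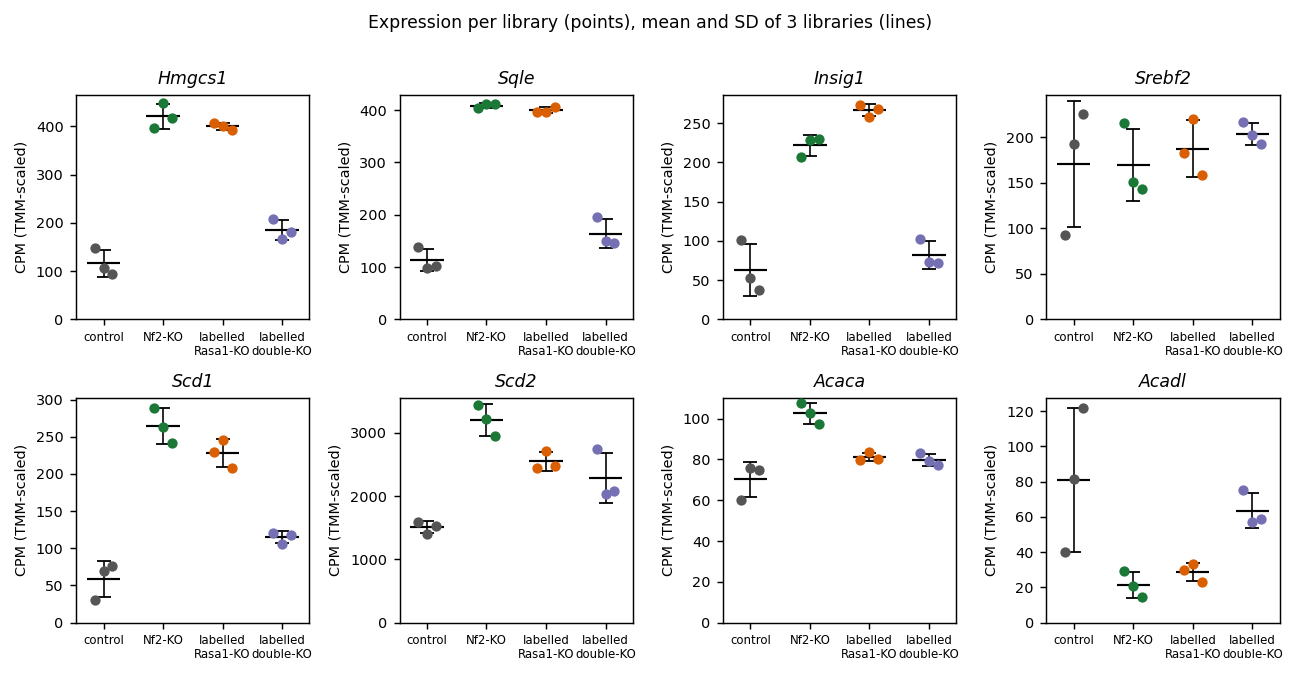
Expression in each library (points, CPM scaled by TMM, linear y axes from 0) of 8 members in the 4 groups (x axis), with the mean and SD of 3 libraries (lines). *Hmgcs1*, *Sqle*, *Insig1* and *Scd1* separate *Nf2*-KO and the libraries labelled *Rasa1*-KO from control, *Srebf2* does not, and *Acadl* is lower in these 2 groups.

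Among the regulators, *Insig1*, itself a target of SREBPs that restrains them, moved with the enzymes. It was at 100.5, 52.3 and 36.8 CPM in control, 206, 228.5 and 229.5 in *Nf2*-KO, 273, 258 and 268 in the libraries labelled *Rasa1*-KO and 102, 72.5 and 71.4 in those labelled double-KO. Control varied widely, and the libraries labelled double-KO lay mostly within its range. *Insig1* rose by 1.81 ± 0.29 in *Nf2*-KO (adjusted p = 0.00044), and the rise of 2.07 ± 0.29 in the libraries labelled *Rasa1*-KO (adjusted p = 0.00022) was the largest of any member there.

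Of the SREBP genes themselves, *Srebf2* was called in no comparison with control and *Srebf1* in *Nf2*-KO, when all libraries were fitted without a replicate block. *Srebf2* was at 92.6, 192 and 225 CPM in control, 215, 151 and 143 in *Nf2*-KO, 183, 220.5 and 158.5 in the libraries labelled *Rasa1*-KO and 217, 202 and 193 in those labelled double-KO. All groups overlapped, and the log2 fold changes were 0.00 ± 0.27, 0.14 ± 0.27 and 0.26 ± 0.27 (adjusted p = 1.0, 0.7 and 0.64). *Srebf1* was at 201, 190.4 and 140.1 CPM in control, 255, 248.5 and 268 in *Nf2*-KO, 201, 208 and 209.7 in the libraries labelled *Rasa1*-KO and 269, 226 and 214 in those labelled double-KO. Its level rose in *Nf2*-KO by 0.54 ± 0.14 (adjusted p = 0.0077), a call lost in a fit of only the groups compared (0.50 ± 0.16, adjusted p = 0.053). It gave 0.22 ± 0.14 and 0.42 ± 0.14 in the other groups (adjusted p = 0.21 and 0.096), and both were called without the control library without a number (0.32 ± 0.13 and 0.52 ± 0.13, adjusted p = 0.046 and 0.012) and with the replicate block by file-name numbers (adjusted p = 0.042 and 0.023). These are transcript levels and do not show how much of the proteins was cleaved.

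*Abca1*, which exports cholesterol from the cell, was the sterol member with the lowest FPKM and the only one called lower against control. It was at 2.58, 23.1 and 25.2 CPM in control, 5.18, 5.09 and 4.67 in *Nf2*-KO, 7.97, 7.58 and 7.15 in the libraries labelled *Rasa1*-KO and 6.03, 9.89 and 9.60 in those labelled double-KO. The control library without a number was below all knockout libraries, whereas the other control libraries were above them all. The fall in *Nf2*-KO was by 1.76 ± 0.57 on the log2 scale (adjusted p = 0.028), and that call was lost when control replicate 1, control replicate 2 or any *Nf2*-KO replicate was left out, and in a fit of only the groups compared. Without the control library without a number *Abca1* was called lower in the groups labelled *Rasa1*-KO and double-KO as well (-1.67 ± 0.17 and -1.50 ± 0.17, adjusted p = 6.4e-06 and 0.00015). With the replicate block by file-name numbers it was called lower in the former (-1.30 ± 0.43, adjusted p = 0.03) but not in the latter (-0.54 ± 0.42, adjusted p = 0.43).

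Sterol genes outside the members are reported here in part, so they are given by name and not by count. *Tmem97*, a membrane protein of the endoplasmic reticulum, rose by 1.71 ± 0.16 in *Nf2*-KO (adjusted p = 6e-06) and 1.40 ± 0.15 in the libraries labelled *Rasa1*-KO (adjusted p = 3.5e-05), and the thiolase gene *Acat2* by 1.51 ± 0.26 and 1.62 ± 0.26 (adjusted p = 0.00071 and 0.00053). *Lbr*, the lamin B receptor, which also has sterol reductase activity, rose by 1.05 ± 0.10 and 0.92 ± 0.10 (adjusted p = 6.7e-06 and 2.7e-05). *Nr1h3* encodes the liver X receptor alpha. It was at 5.56, 2.97 and 2.74 CPM in control, 0.564, 0.878 and 0.731 in *Nf2*-KO, 0.402, 0.414 and 0.385 in the libraries labelled *Rasa1*-KO and 4.29, 1.94 and 2.26 in those labelled double-KO, and fell by 2.37 ± 0.36 (adjusted p = 0.00031) and 3.23 ± 0.38 (adjusted p = 6e-05) in the first 2 of these knockout groups. *Scap*, the escort of the SREBPs, fell by 0.43 ± 0.11 and 0.45 ± 0.11 (adjusted p = 0.0079 and 0.0063). *Mylip*, a ubiquitin ligase, gave -0.84 ± 0.38 in *Nf2*-KO (adjusted p = 0.093) and fell by 1.10 ± 0.39 in the group labelled *Rasa1*-KO (adjusted p = 0.038).

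In the fatty-acid synthesis arm, *Acss2*, *Scd1*, *Scd2*, *Fads1* and *Elovl6* rose in *Nf2*-KO and in the libraries labelled *Rasa1*-KO. *Acaca*, *Acly* and *Fads2* were called in *Nf2*-KO but not in the libraries labelled *Rasa1*-KO. None of them was called between these groups in the fit of all libraries without a replicate block. Without the control library without a number *Acly* and *Fads2* were called in the latter too (0.61 ± 0.14 and 0.66 ± 0.21, adjusted p = 0.003 and 0.016), and so they were with the replicate block by file-name numbers (adjusted p = 0.0015 and 0.00074). In *Nf2*-KO 8 of 9 members were called higher and 0 lower, with a median log2 fold change of 0.85. In the libraries labelled *Rasa1*-KO 5 were called higher and 0 lower (median 0.47), and in those labelled double-KO 3 higher and 0 lower (median 0.50). At an unadjusted p under 0.05 the edgeR counts of lower members stayed at 0 in all 3 comparisons, as did those of DESeq2. All 5 members of elongation and desaturation (*Scd1*, *Scd2*, *Elovl6*, *Fads1* and *Fads2*) were called higher in *Nf2*-KO, although the call of *Fads2* was lost without control replicate 1, control replicate 2 or *Nf2*-KO replicate 3 (adjusted p from 0.057 to 0.069). *Fasn*, the multifunctional synthase, gave 0.18 ± 0.11, -0.15 ± 0.11 and 0.14 ± 0.11 (adjusted p = 0.22, 0.3 and 0.51). *Acly*, which cleaves citrate, gave 0.48 ± 0.17 in *Nf2*-KO (adjusted p = 0.043), a call lost without any 1 of control replicates 1 and 2 or the *Nf2*-KO replicates, and in a fit of only the groups compared.

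*Acss2*, which makes acetyl-CoA from acetate, was at 16.5, 14.3 and 11.03 CPM in control, 47.6, 50.2 and 50.9 in *Nf2*-KO, 37.4, 38.0 and 40.6 in the libraries labelled *Rasa1*-KO and 23.7, 22.7 and 23.6 in those labelled double-KO. None of the 4 groups overlapped another. It rose by 1.83 ± 0.13 (adjusted p = 9.8e-07), 1.47 ± 0.13 (adjusted p = 7.2e-06) and 0.74 ± 0.13 (adjusted p = 0.0057). *Acaca*, acetyl-CoA carboxylase, which makes malonyl-CoA and sets the rate, was at 60.3, 75.8 and 74.8 CPM in control, 108, 103 and 97.4 in *Nf2*-KO, 79.8, 83.5 and 80.3 in the libraries labelled *Rasa1*-KO and 83.1, 79.4 and 77.1 in those labelled double-KO. All knockout libraries were above the highest control library, and *Nf2*-KO was highest, with a rise of 0.55 ± 0.10 (adjusted p = 0.0011), whereas the other groups gave 0.21 ± 0.10 and 0.18 ± 0.10 (adjusted p = 0.12 and 0.33).

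The stearoyl-CoA desaturase genes *Scd1* and *Scd2* lie close together on chromosome 19 and are near copies, so reads may have been divided between them with error. Per length, *Scd2* was the most abundant of all members in every library, with 247 to 578 FPKM, and *Scd1* was at 5.75 to 54.7 FPKM. *Scd1* was at 30.6, 69.8 and 75.6 CPM in control, 289, 263 and 241 in *Nf2*-KO, 230.1, 246 and 208 in the libraries labelled *Rasa1*-KO and 121, 106 and 118 in those labelled double-KO. It was above control in all 9 knockout libraries, with log2 fold changes of 2.17 ± 0.26 (adjusted p = 5.1e-05), 1.96 ± 0.26 (adjusted p = 0.00014) and 0.97 ± 0.25 (adjusted p = 0.044), the last lost without control replicate 1 or any 1 double-KO replicate (adjusted p from 0.06 to 0.11). *Scd2* was at 1588, 1405 and 1529 CPM in control, 3444, 3215 and 2948 in *Nf2*-KO, 2445, 2718 and 2483 in the libraries labelled *Rasa1*-KO and 2742, 2029 and 2077 in those labelled double-KO. No knockout library reached down to control, and the rises were 1.09 ± 0.14 (adjusted p = 7.9e-05), 0.76 ± 0.14 (adjusted p = 0.0012) and 0.60 ± 0.14 (adjusted p = 0.025), the last lost without control replicate 1 or double-KO replicate 1 or 3 (adjusted p from 0.052 to 0.075).

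*Fads1*, the desaturase of polyunsaturated fatty acids, was at 99.6, 75.85 and 66.4 CPM in control, 244, 238.5 and 239.6 in *Nf2*-KO, 172, 174 and 168 in the libraries labelled *Rasa1*-KO and 149, 101 and 103 in those labelled double-KO. *Elovl6*, which elongates palmitate, was at 65.7, 61.4 and 57.7 CPM in control, 108, 116 and 109.5 in *Nf2*-KO, 84.9, 86.8 and 84.8 in the libraries labelled *Rasa1*-KO and 78.3, 71.5 and 77.4 in those labelled double-KO. Both genes were ordered *Nf2*-KO, then the libraries labelled *Rasa1*-KO, then those labelled double-KO, then control, with no overlap between neighbours. *Fads1* rose by 1.58 ± 0.17 (adjusted p = 2.1e-05) and 1.09 ± 0.17 (adjusted p = 0.0004) and gave 0.54 ± 0.17 in the libraries labelled double-KO (adjusted p = 0.08, or 0.0022 with the replicate block by file-name numbers). *Elovl6* rose by 0.85 ± 0.08 (adjusted p = 1.2e-05) and 0.47 ± 0.08 (adjusted p = 0.001) and gave 0.30 ± 0.08 (adjusted p = 0.059, or 0.03 with that block).

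Of 21 other genes of fatty-acid and glycerolipid synthesis tested, 8 (38.1%) were called higher and 5 (23.8%) lower in *Nf2*-KO, beside 20.6% and 22.2% of all genes. In the libraries labelled *Rasa1*-KO 5 (23.8%) were called in each direction, beside 19.7% and 22.2%, and 2 were higher and 1 lower in those labelled double-KO, beside 4% and 2.46%. *Acsl3*, an acyl-CoA synthetase of lipid droplets, was at 46.7, 32.8 and 30.1 CPM in control and 168, 193 and 180.1 in *Nf2*-KO, and rose by 2.30 ± 0.15 (adjusted p = 5.3e-07). It rose by 1.96 ± 0.15 (adjusted p = 2.4e-06) and 0.70 ± 0.15 (adjusted p = 0.015) in the groups labelled *Rasa1*-KO and double-KO. *Lpin1*, a phosphatidate phosphatase, rose by 1.54 ± 0.11, 1.33 ± 0.10 and 0.57 ± 0.10 (adjusted p = 7e-07, 3.1e-06 and 0.0079). *Acsl4*, which activates arachidonate, went the other way from its paralog and fell by 1.15 ± 0.16 and 0.95 ± 0.16 (adjusted p = 0.00017 and 0.00071). The elongase *Elovl7* fell by 1.33 ± 0.15, 0.87 ± 0.15 and 0.57 ± 0.14 (adjusted p = 2.5e-05, 0.00065 and 0.039), and the mitochondrial synthase gene *Oxsm* fell by 1.00 ± 0.18 and 0.88 ± 0.18 (adjusted p = 0.00091 and 0.0024). *Slc25a1*, the mitochondrial citrate carrier, rose by 0.87 ± 0.18 and 1.11 ± 0.18 (adjusted p = 0.0023 and 0.00052). *Acacb*, the mitochondrial paralog of *Acaca*, rose by 1.15 ± 0.29 in *Nf2*-KO (adjusted p = 0.0078) and gave 0.72 ± 0.29 in the group labelled *Rasa1*-KO (adjusted p = 0.065).

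In the oxidation arm, *Acadl*, *Cpt1a* and *Hadhb* were called lower in *Nf2*-KO and in the libraries labelled *Rasa1*-KO. When all libraries were fitted without a replicate block, 0 of 8 members were called higher, with 0 higher also at an unadjusted p under 0.05 and in DESeq2. The 3 members are 37.5% of this small arm, beside 22.2% of all genes called lower in each comparison. In fits of only the groups compared *Acadl* alone was still called lower in either group, beside 15.8% and 13.6% of all genes, and *Cpt1a* (adjusted p = 0.077 and 0.094) and *Hadhb* (adjusted p = 0.059 and 0.067) were not. The median log2 fold changes were -0.22 and -0.14. When all libraries were fitted without a replicate block, 5 members, *Cpt2*, *Acadm*, *Acads*, *Acadvl* and *Hadha*, were not called in any comparison with control. With the replicate block by file-name numbers *Acadvl* was called higher in the libraries labelled *Rasa1*-KO (0.42 ± 0.15, adjusted p = 0.045). When the control library without a number was left out, the medians became -0.03 and 0.03, and *Acadvl* was called higher in both groups and *Acadm* in the libraries labelled *Rasa1*-KO, beside 3 members called lower in each. The arm took 0.0692% to 0.0778% of all counts in control, 0.0541% to 0.0552% in *Nf2*-KO, 0.0551% to 0.0561% in the libraries labelled *Rasa1*-KO and 0.0543% to 0.0631% in those labelled double-KO.

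*Acadl*, the long-chain acyl-CoA dehydrogenase, was at 39.8, 81.4 and 122 CPM in control, 29.3, 20.6 and 14.3 in *Nf2*-KO, 30.0, 33.1 and 23.2 in the libraries labelled *Rasa1*-KO and 74.9, 56.8 and 58.7 in those labelled double-KO. The first 2 knockout groups lay below all control libraries and the last lay within the control range. *Acadl* fell by 1.92 ± 0.36 (adjusted p = 0.0013) and 1.49 ± 0.36 (adjusted p = 0.0061), and gave -0.35 ± 0.35 in the libraries labelled double-KO (adjusted p = 0.62). *Cpt1a*, the carnitine palmitoyltransferase of entry, was at 62.8, 113 and 105 CPM in control, 66.7, 59.2 and 57.4 in *Nf2*-KO, 62.7, 65.3 and 59.1 in the libraries labelled *Rasa1*-KO and 69.9, 70.3 and 72.7 in those labelled double-KO. The control library without a number had the level of the knockout libraries, and the other control libraries were above all of them. Without the former *Cpt1a* was called lower in the libraries labelled double-KO too (-0.62 ± 0.09, adjusted p = 0.00049). The falls were by 0.61 ± 0.18 (adjusted p = 0.015) and 0.59 ± 0.18 (adjusted p = 0.02), and both calls were lost without control replicate 1. The call in *Nf2*-KO was also lost without *Nf2*-KO replicate 2 or 3, and that in the libraries labelled *Rasa1*-KO without control replicate 2, *Rasa1*-KO replicate 2 or the library so labelled without a number.

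*Hadhb* was at 111, 68.2 and 68.3 CPM in control, 51.0, 55.45 and 57.0 in *Nf2*-KO, 55.1, 49.5 and 51.6 in the libraries labelled *Rasa1*-KO and 72.8, 57.9 and 60.2 in those labelled double-KO. It fell by 0.60 ± 0.18 (adjusted p = 0.017, or 0.06 without *Nf2*-KO replicate 1) and 0.67 ± 0.18 (adjusted p = 0.01), whereas *Hadha*, the partner subunit on the other side of the printed stretch, gave -0.04 ± 0.18 and -0.16 ± 0.18 (adjusted p = 0.87 and 0.5). *Cpt2*, the inner-membrane carnitine palmitoyltransferase, was at 20.2, 18.1 and 15.7 CPM in control, 14.9, 14.7 and 15.6 in *Nf2*-KO, 16.5, 16.8 and 16.1 in the libraries labelled *Rasa1*-KO and 19.85, 15.6 and 17.3 in those labelled double-KO, and gave -0.26 ± 0.12 in *Nf2*-KO (adjusted p = 0.1). *Acadm*, the medium-chain dehydrogenase, was at 158.5, 98.3 and 86.4 CPM in control, 94.2, 104 and 106 in *Nf2*-KO, 119, 111.5 and 121 in the libraries labelled *Rasa1*-KO and 95.9, 88.6 and 89.3 in those labelled double-KO. The control library without a number was above every other library for *Acadm*, and the fold changes were between -0.33 and 0.04 (adjusted p from 0.33 to 0.89).

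Of 27 other oxidation genes tested, 5 (18.5%) were called higher and 8 (29.6%) lower in *Nf2*-KO, beside 20.6% and 22.2% of all genes. In the libraries labelled *Rasa1*-KO 6 (22.2%) were higher and 7 (25.9%) lower, beside 19.7% and 22.2%, and in those labelled double-KO 1 and 1 (3.70% each), beside 4% and 2.46%. These shares lay near those of all genes. *Ppargc1a*, a coactivator of mitochondrial biogenesis and oxidation, was at 10.1, 20.3 and 26.6 CPM in control, 4.96, 4.58 and 3.46 in *Nf2*-KO, 4.13, 4.81 and 3.77 in the libraries labelled *Rasa1*-KO and 9.32, 5.37 and 6.01 in those labelled double-KO. All 9 knockout libraries were below all control libraries, and it fell by 2.13 ± 0.33, 2.16 ± 0.33 and 1.46 ± 0.32 (adjusted p = 0.0003, 0.00034 and 0.02). *Angptl4*, a secreted inhibitor of lipoprotein lipase, rose by 1.46 ± 0.22, 1.03 ± 0.22 and 0.90 ± 0.21 (adjusted p = 0.00024, 0.0028 and 0.029). *Acad10*, an acyl-CoA dehydrogenase family member, fell by 1.06 ± 0.12 and 0.49 ± 0.12 (adjusted p = 4.1e-05 and 0.0083), and the nuclear receptor gene *Ppard* fell by 1.25 ± 0.42 and 1.18 ± 0.42 (adjusted p = 0.032 and 0.041). *Cpt1c*, a brain-type paralog of *Cpt1a* at 0.754 to 3.02 CPM, rose by 1.30 ± 0.26 and 1.16 ± 0.26 (adjusted p = 0.0019 and 0.0041), and *Plin2*, a coat protein of lipid droplets, rose by 0.70 ± 0.21 and 0.80 ± 0.21 (adjusted p = 0.017 and 0.0093). *Echs1*, the short-chain enoyl-CoA hydratase, rose by 0.49 ± 0.17 and 0.81 ± 0.18 (adjusted p = 0.039 and 0.0034), whereas *Ppara*, a nuclear receptor that activates oxidation genes, gave -0.73 ± 0.31 in *Nf2*-KO (adjusted p = 0.073) and fell by 1.06 ± 0.31 in the group labelled *Rasa1*-KO (adjusted p = 0.017).

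**Figure D3:**
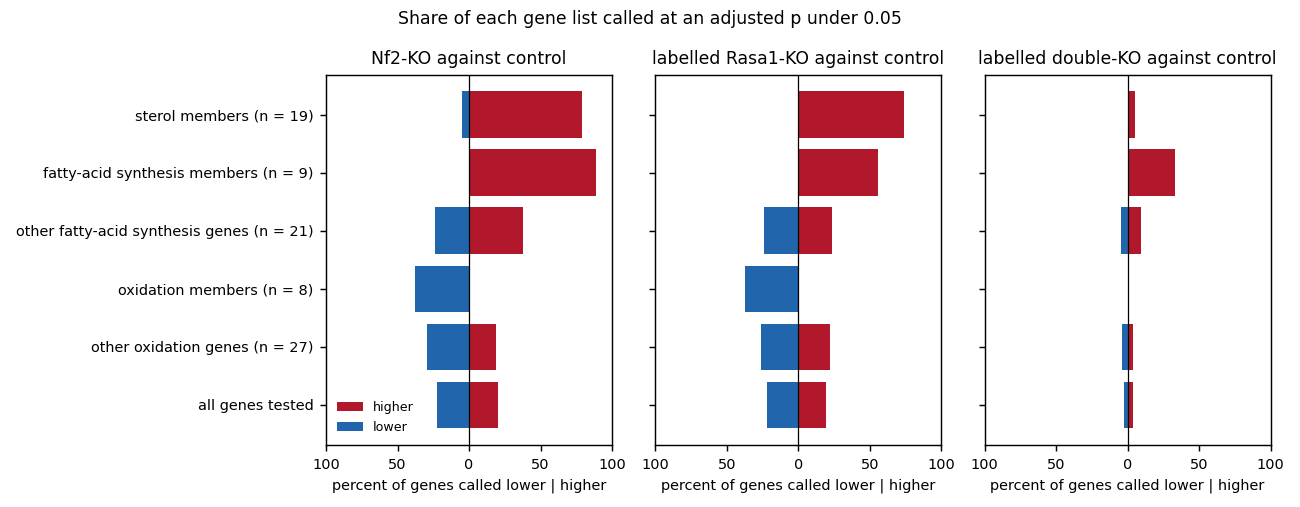
Percent of each gene list called higher (red, to the right) or lower (blue, to the left) against control at an adjusted p under 0.05, for the members of each arm, the other genes of the fatty-acid synthesis and oxidation arms, and all 18053 genes tested (y axis), in 3 panels, 1 per comparison. The members of the sterol and fatty-acid synthesis arms reach 78.9% and 88.9% higher in *Nf2*-KO beside 20.6% of all genes.

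The 2 groups with low *Nf2* transcript were compared with each other too, and the number of members called depended on the libraries in the fit. Between the libraries labelled *Rasa1*-KO and *Nf2*-KO, all 12 libraries were fitted in edgeR without a replicate block. There 0 members were called higher and 1 lower, against 1.92% and 1.74% of all genes. At an unadjusted p under 0.05 the counts were 0 and 7, and DESeq2 called 0 and 3. The member was *Elovl6*, lower by 0.38 ± 0.08 on the log2 scale in the libraries labelled *Rasa1*-KO (adjusted p = 0.031), a call lost without any 1 of these 6 libraries. The median log2 fold change was 0.02 in the sterol arm, -0.34 in the fatty-acid synthesis arm, where 9 of 9 members were lower, and 0.12 in the oxidation arm. In a fit of these 6 libraries alone 8 members were called higher and 9 lower, against 12% and 13.8% of all genes. Of the 9, 7 were in the fatty-acid synthesis arm. Without the control library without a number and double-KO replicate 1 the counts were 2 and 9, against 8.76% and 10.5%, again with 7 of the 9 in that arm. The low counts in the fit of all libraries do not show that these groups are alike.

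The libraries labelled double-KO, in which *Nf2* transcript was at the control level, were below both other knockout groups in the sterol arm. Against those labelled *Rasa1*-KO, 1 member was called higher and 17 lower, against 16.3% and 14% of all genes, and 14 of the 17 were sterol members (median log2 fold change -1.11). Against *Nf2*-KO, 1 was called higher and 20 lower, against 16.9% and 15.3% of all genes, with 14 sterol members (median -1.08) and 6 of the fatty-acid synthesis arm (median -0.49). The member called higher in both was *Acadl*, by 1.14 ± 0.35 (adjusted p = 0.03) and 1.57 ± 0.36 (adjusted p = 0.0057), the former call being lost without any 1 of the 6 libraries compared. *Sqle* was lower by a log2 fold change of -1.29 ± 0.15 (adjusted p = 8.5e-05) against the libraries labelled *Rasa1*-KO and of -1.32 ± 0.15 (adjusted p = 4.4e-05) against *Nf2*-KO. *Scd2* gave -0.16 ± 0.14 (adjusted p = 0.41) against the former and was lower by -0.49 ± 0.14 (adjusted p = 0.018) against the latter.

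Against control, the members called higher in the libraries labelled double-KO were *Hmgcs1*, *Acss2*, *Scd1* and *Scd2*, and the median log2 fold change was 0.42 in the sterol arm, 0.50 in the fatty-acid synthesis arm and -0.25 in the oxidation arm. Of these only *Acss2* was still called without control replicate 1 or double-KO replicate 1 or 3. The count depended most on the control library without a number, and the 23 members called higher without it were 15 of the 19 sterol members (median 0.70), 7 of the 9 fatty-acid synthesis members (median 0.64) and 1 of the 8 oxidation members, where the median became 0.02 and 1 was called lower. Without double-KO replicate 1 the medians were 0.25, 0.275 and -0.34. Without both that replicate and the control library without a number the counts were 20 and 3, against 17.1% and 12.8%. With the file-name numbers as a replicate block in the fit of all libraries 18 members were called higher and 0 lower in edgeR (21 and 3 at an unadjusted p under 0.05), against 8.03% and 5.82% of all genes. In fits of these 6 libraries alone 0 were called, with the block (18 higher and 0 lower at an unadjusted p under 0.05) or without it (7 and 0), where 1.24% and 0.72% of all genes were called with the block and 0.051% in each direction without it. With double-KO replicate 1 kept and that control library left out, *Sqle* gave 0.70 ± 0.12 (adjusted p = 0.0014), *Insig1* 0.88 ± 0.17 (adjusted p = 0.0031) and *Fdps*, farnesyl diphosphate synthase, 1.04 ± 0.18 (adjusted p = 0.0017). These sizes stayed below those of the other knockout groups.

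**Figure D4:**
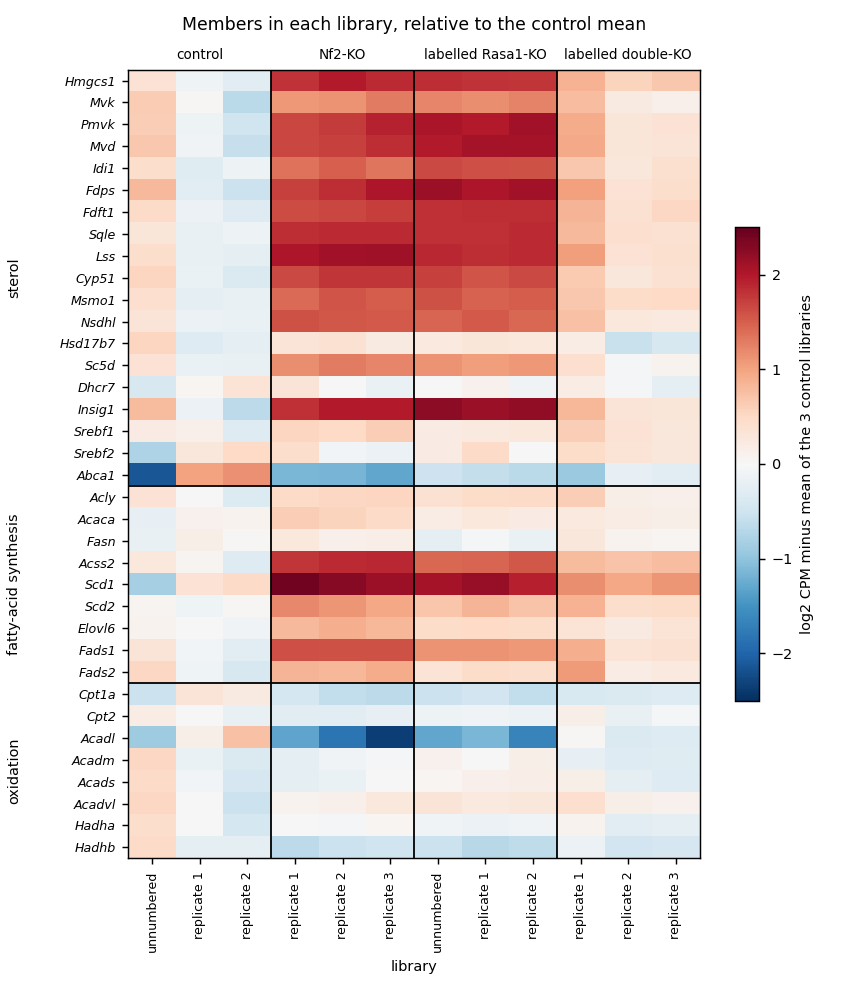
Log2 CPM of the 36 members (rows, by arm) in each of the 12 libraries (columns, by group) minus the mean of the 3 control libraries, as colour from blue (below control) to red (above). Most of the sterol block, except *Hsd17b7*, *Dhcr7*, *Srebf1*, *Srebf2* and *Abca1*, is deep red in the 6 libraries of *Nf2*-KO and of those labelled *Rasa1*-KO, and paler in those labelled double-KO. Over all 19 sterol members the median differences were 1.53 to 1.66 per library in the former and 0.31 to 0.74 in the latter, where the control library without a number stands at 0.43.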

How the data were processed

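Total RNA depleted of rRNA was made into TruSeq stranded libraries and sequenced in pairs. Per the study's methods, Trimmomatic 0.38 removed adapters and low-quality bases, HISAT2 2.1.0 placed the reads on mm10, SAMtools 1.9 sorted them, and StringTie 2.1.3b quantified RefSeq genes. The authors deposited per library raw counts, FPKM, TPM and a normalized log2 column per gene; TPM and log2 values were not used. Whether counting used strand is not given in the sources used here.

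Counts of the 12 libraries (3 per group) were fitted with edgeR 4.0.16 (R 4.3.3; TMM, factors 0.946 to 1.15; filterByExpr, 18053 of 18926 genes; 1 coefficient per labelled group; no gene had a count of 0). CPM are TMM-scaled, and FPKM are the deposited values. The median SE over members was 0.181. The fit was first tested on simulated data. Alternatives used DESeq2 1.42.0 and limma 3.58.1 on log2(FPKM + 1).

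Title numbers did not pair the libraries. Numbers in the file names are shared by control and the libraries labelled double-KO. Deviations from the group means correlated at 0.626, 0.313 and 0.444 over genes in these same-numbered pairs. The crossed pairs of these groups gave -0.56 to 0.399, and same-numbered pairs with other groups -0.0552 to 0.174. A crossed pair (0.399) thus exceeded a same-numbered pair (0.313), so these correlations do not show that the libraries were paired.

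The members and lists were chosen with earlier results of these data known. Values per library are given for the up to 5 members per arm with the smallest adjusted p against control and for *Srebf1*, *Srebf2*, *Insig1*, *Acaca*, *Cpt1a*, *Scd1* and *Scd2*, and other pathway genes are named from the 3 largest rises and falls per arm and comparison. Gene names are those of the tables. Genes listed but absent from these tables were not analysed here. Some other sterol genes are not reported here, though they were in the fit of all genes, so no count of that list is given.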

Additional observations from a re-analysis of the deposited data

How the results depend on the processing

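The comparisons were repeated under 20 other settings, and under 2 more chosen after seeing the data. Of 693 alternative values of the fold changes of members called against control, 641 kept the call, 52 lost it and 0 changed sign. Calls between knockout groups are not in this tally. Against control, leaving out 1 library lost the calls of *Abca1*, *Acly*, *Cpt1a*, *Fads2* and *Hadhb* in *Nf2*-KO, *Cpt1a* in the libraries labelled *Rasa1*-KO, and *Hmgcs1*, *Scd1* and *Scd2* in those labelled double-KO. Against control, *Srebf1* in *Nf2*-KO, *Hadhb* in the libraries labelled *Rasa1*-KO and *Acss2* in those labelled double-KO lost their calls only in fits of the groups compared. Between knockout groups calls were lost as well, among them those of *Elovl6* and *Acadl* given above. The study's rule (fold change of at least 3 and raw p under 0.05) gave 11 higher and 2 lower members in *Nf2*-KO against control, 10 and 0 in the libraries labelled *Rasa1*-KO, 0 higher in those labelled double-KO, 0 and 1 for double-KO against *Rasa1*-KO, 0 and 0 for double-KO against *Nf2*-KO, and 0 lower for *Rasa1*-KO against *Nf2*-KO, where in the same order 3.76% and 7.63%, 3.16% and 6.11%, 0.576%, 3.64% and 2.02%, 4.81% and 2.88%, and 0.487% of all genes met it. Fits of only the groups compared gave 1 lower in *Nf2*-KO and 1 lower in *Rasa1*-KO against control, beside 15.8% and 13.6% of all genes. They gave 0 higher in double-KO against control, beside 0.051%, and 8 higher and 9 lower for *Rasa1*-KO against *Nf2*-KO, beside 12% and 13.8%. For double-KO they gave 3 higher against *Rasa1*-KO and 2 higher against *Nf2*-KO. DESeq2 gave 8 higher for double-KO against control, 2 higher for double-KO against *Rasa1*-KO and 3 lower for *Rasa1*-KO against *Nf2*-KO. Limma on log2(FPKM + 1) gave 2 higher for double-KO against control and 3 lower for *Rasa1*-KO against *Nf2*-KO, and no filter gave 0 lower for the latter. A replicate block by title numbers gave 2 higher for double-KO against control, 0 higher for double-KO against *Rasa1*-KO and 0 lower for *Rasa1*-KO against *Nf2*-KO. The replicate block by file-name numbers gave 18 higher for double-KO against control, beside 8.03% of all genes, and 0 higher with only those groups, beside 1.24%. It gave 3 lower for *Rasa1*-KO against *Nf2*-KO and 2 higher for double-KO against *Nf2*-KO. Without the control library without a number and double-KO replicate 1, 20 were higher and 3 lower in double-KO against control, beside 17.1% and 12.8% of all genes. For *Rasa1*-KO against *Nf2*-KO 2 were then higher and 9 lower, beside 8.76% and 10.5%. In that setting 5 were lower in *Rasa1*-KO against control, and 3 were higher for double-KO against *Rasa1*-KO and 3 against *Nf2*-KO. Where no share of all genes stands beside a count, the count says nothing particular to the members.

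With 1 library left out in turn, members called higher numbered 21 to 25 and lower 2 to 4 in *Nf2*-KO against control, 19 to 25 and 2 to 4 in *Rasa1*-KO against control, 1 to 23 and 0 to 2 in double-KO against control, 0 to 0 and 15 to 18 for double-KO against *Rasa1*-KO, 0 to 0 and 0 to 0 for *Rasa1*-KO against *Nf2*-KO, and 1 to 1 and 17 to 22 for double-KO against *Nf2*-KO, with all group names as labelled. Only libraries of the groups compared were left out. Where no share of all genes is given, these ranges say nothing particular to the members. The shares of all genes moved too. Without the control library without a number, 30.6% were higher and 31% lower in *Nf2*-KO against control, beside 20.6% and 22.2% with it. In *Rasa1*-KO against control these were 30.3% and 30.2%, beside 19.7% and 22.2%. In double-KO against control they were 17.2% and 12.9%, beside 4% and 2.46%. The cause of these changes was not tested. RLE scaling left every count of members within 1.5 times. All 36 members passed the filter on low counts, and the lowest count of any member was 243, of *Abca1* in the control library without a number.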
